A study of Mus musculus with 12 samples.

Results

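A set of 10 genes that carry dietary fat through the absorptive cell of the intestine was followed in intestinal stem cells (ISCs) of young and old mice. The set was a list of names covering fatty acid binding and uptake (Fabp1, Fabp2, Cd36), triglyceride synthesis (Dgat1, Dgat2), lipoprotein assembly (Mttp, Apob) and apolipoproteins (Apoa1, Apoa4, Apoc3). The list itself uses no expression value, but it was chosen with earlier results of these data known. All 10 were present among the 54232 genes of the count table and all 10 were among the 13368 genes kept for testing. The filter on low counts was passed by Cd36 in 7 of 12 libraries and by the other 9 genes in 12 of 12.

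The study profiled sorted small intestinal ISCs by 3′ RNA sequencing, which reads the end of each polyadenylated transcript, with 1 mouse behind each library. Young mice were 2 months old and old mice were 22 months old. In the SM6 groups the mice were wild type on the C57/Bl6 strain. In the Lgr5-GFP groups they carried a construct that the labels spell Lgr5-EGFP-IRES-CreERT and the study's methods Lgr5-EGFP-IRES-CreERT2. It is a fluorescent reporter with an inducible recombinase placed at the stem cell receptor gene Lgr5. Each of the 4 groups (SM6 young, SM6 old, Lgr5-GFP young, Lgr5-GFP old) held 3 libraries. No treatment was named for any group. SM6 stands for a sort by surface markers. The protocol in the labels gives that sort for every library, whereas a legend in the study's supplement has the reporter mice sorted by fluorescence, so the isolations are named here as in the sample titles. Strain and isolation changed together and cannot be told apart.

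Long-chain fatty acids that enter an enterocyte are held in the cytoplasm by fatty acid binding proteins, activated with coenzyme A and built into triglyceride. Microsomal triglyceride transfer protein loads that triglyceride onto apolipoprotein B to form chylomicrons, which take up further apolipoproteins and leave for the lymph. The genes are known as markers of villus enterocytes and rise as crypt cells differentiate, so stem cells are known to express them at low levels.

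Each library held between 970472 and 3815425 counts (median 1424340), and the 10 genes together took between 0.130% and 1.25% of a library. The stem cell markers were present in every library, with Lgr5 between 217 and 356 CPM (counts per 1000000 of a library's TMM-scaled total), Olfm4 between 5397 and 11904 CPM and Ascl2 between 89.2 and 132 CPM. A pair of libraries stood apart. SM6 old replicate 3 and Lgr5-GFP young replicate 1 had 23.1% and 23.2% of their counts in defensin genes, which mark Paneth cells, against 1.26% to 12.4% in the other 10. Results that changed without those libraries are given both ways. In bulk samples such as these, fewer cells of a type and less RNA per cell cannot be told apart.

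Start site windows are shown for the 4 genes of the set that passed the test for age in an isolation: Fabp1 and Fabp2, and the pair of apolipoprotein genes Apoa1 and Apoa4. Each window runs from 250 bases before to 50 bases after the RefSeq start site, on the strand of the gene, in GRCm38.p6. The table of windows matched 7 of the 10 genes and did not list Apoc3, Dgat1 or Dgat2. Capitals mark matches, on either strand, to a TATA box, to nuclear receptor core motifs and to motifs named after factors of the gut epithelium. The windows lie at chr6:71199629-71199928 for Fabp1, chr3:122894822-122895121 for Fabp2, chr9:46228380-46228679 for Apoa1 and chr9:46240594-46240893 for Apoa4, all on the plus strand.
Fabp1: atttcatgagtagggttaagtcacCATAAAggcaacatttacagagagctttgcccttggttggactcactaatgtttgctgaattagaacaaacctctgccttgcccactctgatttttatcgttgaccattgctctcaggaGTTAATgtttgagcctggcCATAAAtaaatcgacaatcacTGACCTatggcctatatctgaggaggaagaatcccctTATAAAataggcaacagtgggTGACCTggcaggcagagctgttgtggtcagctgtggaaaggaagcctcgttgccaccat
Fabp2: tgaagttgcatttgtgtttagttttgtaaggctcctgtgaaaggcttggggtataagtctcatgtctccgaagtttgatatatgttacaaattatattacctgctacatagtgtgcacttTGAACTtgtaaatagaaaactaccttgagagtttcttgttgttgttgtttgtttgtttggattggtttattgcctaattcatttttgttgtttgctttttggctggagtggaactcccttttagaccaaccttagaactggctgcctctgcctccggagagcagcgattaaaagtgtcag
Apoa1: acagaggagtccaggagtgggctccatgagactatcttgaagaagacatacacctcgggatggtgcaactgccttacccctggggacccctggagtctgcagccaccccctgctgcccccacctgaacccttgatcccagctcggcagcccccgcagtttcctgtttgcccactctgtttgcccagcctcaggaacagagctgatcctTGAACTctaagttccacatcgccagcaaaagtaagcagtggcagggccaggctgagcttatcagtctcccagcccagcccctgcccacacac
Apoa4: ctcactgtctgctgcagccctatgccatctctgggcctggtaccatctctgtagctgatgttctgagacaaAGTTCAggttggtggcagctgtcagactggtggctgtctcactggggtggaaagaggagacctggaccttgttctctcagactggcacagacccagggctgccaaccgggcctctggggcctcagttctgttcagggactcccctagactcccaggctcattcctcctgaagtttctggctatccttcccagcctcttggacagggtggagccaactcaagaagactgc

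The Fabp1 window held the letters of a TATA box (TATAAA) from -30 to -25, counted from the start site. It also held 2 matches to the CDX-type motif TTTATG, from -226 to -221 and from -88 to -83, and 1 to the HNF1-type motif GTTAAT from -107 to -102. The nuclear receptor core motif AGGTCA was found there 2 times, from -67 to -62 and from -9 to -4. Each of the other windows shown had a single capital stretch, the related core motif AGTTCA, from -130 to -125 in Fabp2, from -42 to -37 in Apoa1 and from -179 to -174 in Apoa4.

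Among all 32851 windows of the same length, TATAAA was in 13.6%, TTTATG in 11.9%, GTTAAT in 7.1%, AGGTCA in 16.3% and AGTTCA in 14%. Outside the windows shown, TATAAA was also found for Apob, and TTTATG and AGGTCA for Cd36, where they overlapped. Neither CAAAGTCCA (HNF4 type, 0.475% of windows) nor CAAAGGTCA (direct repeat type, which contains AGGTCA, 0.478%) nor the GATA type, whose letters are AGATAA (11.2%), was in any of the 7 windows. These matches describe letters only. Both nuclear receptor core motifs were added to the search after the windows had been read.

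Old and young ISCs were compared in each isolation to ask which of these genes changed with age. In SM6, Fabp1 and Fabp2 rose with age, 6.33-fold and 2.10-fold, and all 10 genes had a log2 difference above 0. In Lgr5-GFP, the chylomicron and HDL apolipoprotein genes Apoa1 and Apoa4 fell with age, to 0.360 and 0.321 of their young level. Fabp1 was as far above its young level there, 6.01-fold, but did not pass the test. Apoa1 and Apoa4 were thus on opposite sides of 0 in the 2 isolations, and that difference was itself past the threshold for both genes.

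The threshold for a call was an adjusted p of 0.05 (edgeR quasi-likelihood test, Benjamini-Hochberg over the 13368 genes). In SM6, 2 of the 10 genes were called, both higher in old mice, beside 2.42% of all genes. The median log2 difference of the 10 was 0.76, against -0.0070 over all genes tested, and 8 of the 10 had an unadjusted p under 0.05, all higher, beside 13.1% of all genes in either direction. Without the pair of libraries high in defensins 6 of the 10 were called in SM6, with Apoa1, Apoc3, Dgat1 and Cd36 added, beside 3.29% of all genes in the same fit. In Lgr5-GFP, 2 of the 10 were called, both lower, beside 0.471% of all genes. There 4 of the 10 were above 0 and 6 below, and their median was -0.043 against -0.034 over all genes. For the average of both isolations, Fabp1 and Fabp2 were called, beside 2.66% of all genes, and the median of the 10 was 0.28 against -0.026.

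**Figure D1:**
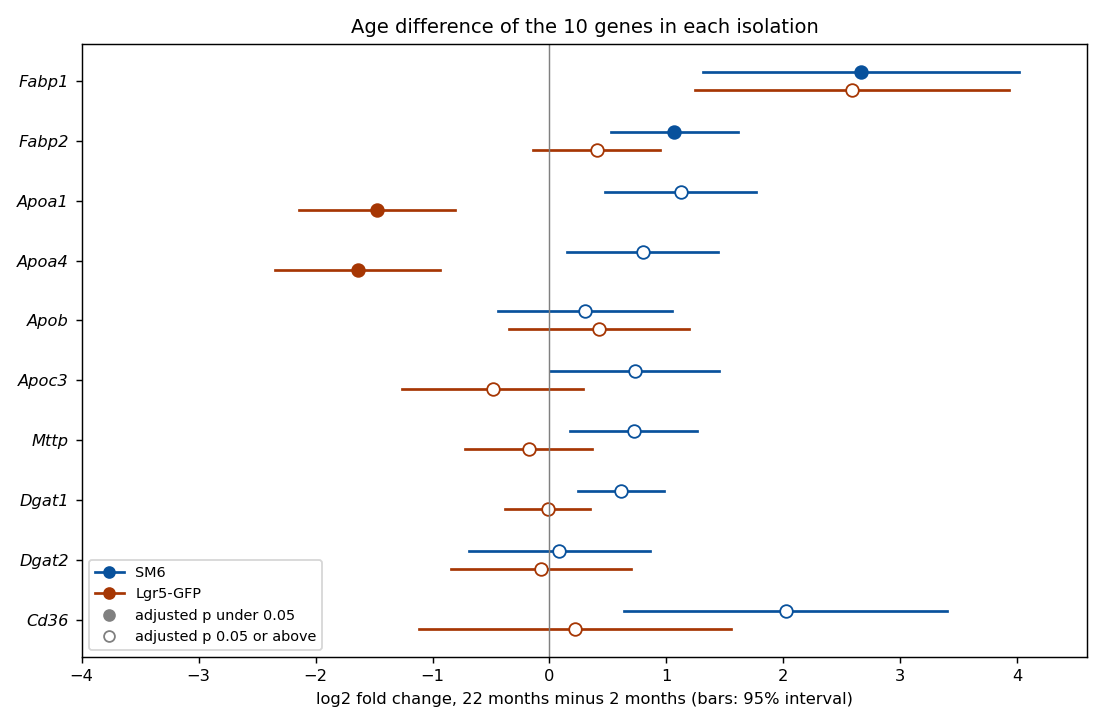
Age difference of each of the 10 genes (vertical axis) as a log2 fold change, 22 months minus 2 months (horizontal axis), in SM6 (blue) and Lgr5-GFP (brown), with 95% intervals as bars and filled points for an adjusted p under 0.05. All 10 SM6 points lie above 0, and the Lgr5-GFP points run from -1.64 for Apoa4 to 2.59 for Fabp1.

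Counted by library, 4 of the 10 genes (Fabp1, Fabp2, Mttp and Dgat1) had every old SM6 library above every young one, while 17.5% of all genes had no overlap between the ages in one direction or the other. In Lgr5-GFP, 2 genes (Apoa1 and Apoa4) had every old library below every young one, beside 14.6% of all genes with no overlap in one direction or the other.

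**Figure D2:**
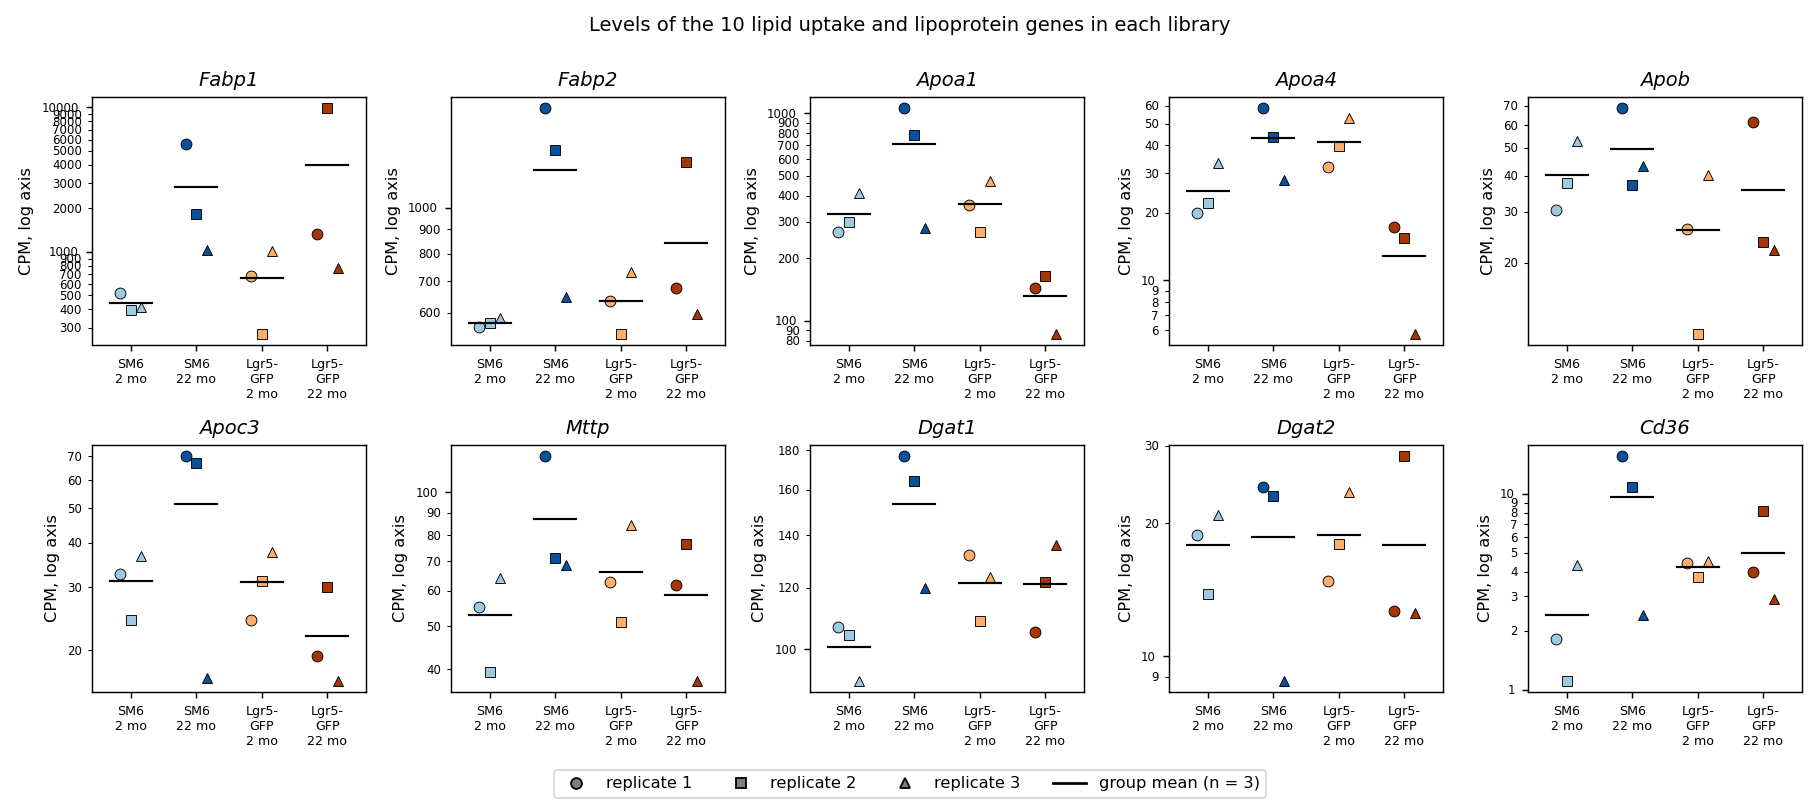
Level of each gene in every library in CPM (vertical axes, log scale), by isolation and age (horizontal axes). Symbols are replicates 1 to 3 and lines are group means of 3 libraries. Among old mice Fabp1 spreads over 1027 to 5563 CPM in SM6, and over 780.2 to 9851 CPM in Lgr5-GFP, while Dgat2 lies between 8.79 and 28.5 CPM throughout.

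Fabp1 encodes the liver-type fatty acid binding protein, an abundant cytoplasmic carrier of fatty acids in proximal enterocytes (chromosome 6, 71199827 to 71205023, plus strand, GRCm38). Young SM6 libraries held 517, 399.6 and 415 CPM of it in replicates 1, 2 and 3, and old SM6 libraries 5563, 1835 and 1027 CPM. Young Lgr5-GFP libraries held 686, 272 and 1023 CPM, and old ones 1334, 9851 and 780.2 CPM. The SM6 ages did not overlap, whereas in Lgr5-GFP old replicate 3 lay below young replicate 3. A single old library was far above its group in each isolation, replicate 1 in SM6 and replicate 2 in Lgr5-GFP.

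On the log2 scale the age difference of Fabp1 was 2.66 (SE 0.65, 95% interval 1.31 to 4.01, edgeR adjusted p = 0.0267) in SM6 and 2.59 (SE 0.65, 1.25 to 3.93, adjusted p = 0.0779) in Lgr5-GFP. Averaged over the isolations it was 2.62 (SE 0.46, edgeR adjusted p = 0.00173), a call lost under robust quasi-likelihood (edgeR adjusted p = 0.151). The difference between the isolations was -0.073 with an interval from -1.87 to 1.72. Without SM6 old replicate 1 the SM6 value was 1.71 (edgeR adjusted p = 0.259), and the Lgr5-GFP value was 0.68 (adjusted p = 0.725) when old replicate 2 of that isolation was left out. The Lgr5-GFP value passed the test on leaving out SM6 old replicate 1 or 3 or Lgr5-GFP old replicate 3, and was then up to 3.08 (edgeR adjusted p down to 0.0217). It also passed in 4 of 14 other settings, which were library totals alone, no filter on low counts, the likelihood ratio test and a covariate for enterocyte content (the summed level of 26 other enterocyte genes, chosen after the data were seen). As a share of all counts, Fabp1 ran from 0.0262% (95% Wilson interval 0.0233 to 0.0294) in Lgr5-GFP young replicate 2 to 1.06% (1.05 to 1.08) in Lgr5-GFP old replicate 2, intervals that cover counting error only.

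Fabp2, the intestinal-type binding protein of the same family (chromosome 3, 122895072 to 122899506, plus strand), was steadier. In SM6 its level was 561, 570.4 and 585 CPM in young replicates 1, 2 and 3 and 1621, 1326 and 649 CPM in the old ones. In Lgr5-GFP it was 635, 543 and 732 CPM in young and 678, 1251 and 596 CPM in old libraries. The young SM6 libraries lay close together and below every old one, while the Lgr5-GFP ages overlapped. Fabp2 rose by 1.07 on the log2 scale in SM6 (SE 0.26, edgeR adjusted p = 0.0272) and stood 0.40 higher in old Lgr5-GFP mice (SE 0.26, adjusted p = 0.666).

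The average over both isolations was 0.73 for Fabp2 (SE 0.19, edgeR adjusted p = 0.0286), a call that was lost on leaving out any of 8 libraries singly (adjusted p of up to 0.12). They were SM6 young replicates 1, 2 and 3, SM6 old replicates 1 and 2, Lgr5-GFP young replicates 1 and 2 and Lgr5-GFP old replicate 2. The average call of Fabp2 was also lost in 3 of 13 other settings (adjusted p of up to 0.225). DESeq2 gave adjusted p-values of 0.105 for Fabp1 and 0.0591 for Fabp2 in SM6, and robust quasi-likelihood in edgeR gave 0.341 and 0.218. With library totals alone the Fabp2 value was 0.96 (edgeR adjusted p = 0.0702). Both SM6 calls were lost on leaving out SM6 young replicate 1, 2 or 3 or SM6 old replicate 1, and that of Fabp2 also on leaving out SM6 old replicate 2 (edgeR adjusted p = 0.118).

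Cd36 encodes a scavenger receptor that takes up long-chain fatty acids at the cell surface (chromosome 5, 17781690 to 17888801, minus strand). It rested on 2 to 20 counts per library. Young SM6 libraries held 1.82, 1.11 and 4.34 CPM and old ones 15.6, 10.9 and 2.397 CPM, and in Lgr5-GFP the values were 4.41, 3.78 and 4.55 CPM in young and 4.00, 8.13 and 2.89 CPM in old libraries. SM6 old replicates 1 and 2 were above every other library and old replicate 3 was among the young values.

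The SM6 difference of Cd36 was 2.02 (SE 0.67, edgeR adjusted p = 0.133) and the Lgr5-GFP one 0.22 (SE 0.65, adjusted p = 0.96). Without SM6 old replicate 3, one of the libraries high in defensins, the SM6 difference was 2.47 (edgeR adjusted p = 0.0256). Cd36 is also expressed in endothelium, fat and macrophages. Of their markers Kdr, Adipoq, Gpihbp1 and Adgre1 were at 0 in all 12 libraries, Fabp4 and Csf1r had 1 count in 1 library each, and Pecam1 ran from 0 to 8 counts. A wider immune list had 4 tested genes of 12 (Ptprc, Lyz2, Itgam and Cd14). In SM6, 2 of these were higher in old mice at an unadjusted edgeR p under 0.05, and 0 were called. The list summed to 15.9 to 20.0 CPM in young and 25.7 to 49.5 CPM in old SM6 libraries. The part of such cells in the Cd36 values was not tested.

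Both diacylglycerol acyltransferases, the enzymes of the last step of triglyceride synthesis, stayed under the threshold. Dgat1 (chromosome 15, 76502015 to 76511953, minus strand) was at 107, 104 and 91.1 CPM in young SM6 libraries and 177, 164 and 119.8 CPM in old ones. In Lgr5-GFP it was at 132, 109 and 124 CPM in young and 105, 122 and 136 CPM in old mice. Every old SM6 library was above every young one, and the Lgr5-GFP ages overlapped. The SM6 difference was 0.61 (SE 0.18, edgeR adjusted p = 0.0723, DESeq2 adjusted p = 0.0274, the one SM6 call of that tool among the 10), and the Lgr5-GFP difference of -0.017 had a 95% interval from -0.38 to 0.35. Without SM6 old replicate 3 the SM6 value was 0.77 (edgeR adjusted p = 0.016).

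Dgat2 (chromosome 7, 99153658 to 99182719, minus strand) had no age difference beyond the spread of its libraries. Its SM6 values were 18.8, 13.9 and 21.0 CPM in young and 24.2, 23.1 and 8.79 CPM in old mice, and its Lgr5-GFP values 14.8, 18.0 and 23.6 CPM in young and 12.7, 28.5 and 12.5 CPM in old mice. The ages overlapped in both isolations. The differences were 0.082 in SM6 (95% interval -0.69 to 0.86) and -0.070 in Lgr5-GFP (-0.84 to 0.70).

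Mttp encodes the large subunit of the microsomal transfer protein (chromosome 3, 138089854 to 138144968, minus strand). It was at 55.2, 39.4 and 64.3 CPM in young SM6 libraries and 121, 71.3 and 68.7 CPM in old ones. Lgr5-GFP libraries held 62.7, 51.0 and 84.4 CPM in young and 62.0, 76.4 and 37.6 CPM in old mice. Old SM6 libraries were all above the young ones, though old replicate 3 by little, and the Lgr5-GFP ages overlapped. The SM6 difference of 0.72 (SE 0.26) had an edgeR adjusted p of 0.189, and the Lgr5-GFP difference was -0.18 (SE 0.26, adjusted p = 0.889). Exons of Mttp share 457 bases with those of Trmt10a on the other strand, which had 17 to 56 counts per library, and the strand setting of the counting was not given in the sources used here.

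Apob, whose product is the structural protein of the chylomicron (chromosome 12, 7977648 to 8016835, plus strand), did not separate the ages either. SM6 libraries held 30.3, 37.7 and 52.8 CPM in young and 68.6, 37.3 and 43.1 CPM in old mice, and Lgr5-GFP libraries 26.1, 11.3 and 40.2 CPM in young and 61.3, 23.6 and 22.2 CPM in old mice. One old library, replicate 1, was highest in each isolation, and the ages overlapped in both. The differences were 0.31 (SE 0.36, edgeR adjusted p = 0.801) in SM6 and 0.42 (SE 0.37, adjusted p = 0.786) in Lgr5-GFP.

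Apoa1, Apoc3 and Apoa4 lie within 14.9 kb of chromosome 9. In GRCm38, Apoa1 runs from 46228580 to 46230466 on the plus strand, Apoc3 from 46232933 to 46235636 on the minus strand and Apoa4 from 46240696 to 46243459 on the plus strand. The gaps between neighbours were 2466 and 5059 bases. The next gene of the cluster, Apoa5, starts 25173 bases further on and was at 0 in all 12 libraries. Apoa4 overlaps 2 antisense transcripts, Gm47528 and Gm10680, which were both at 0 in every library.

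Apoa1 encodes the main protein of HDL, which the intestine also puts on chylomicrons. Its SM6 level was 267, 298 and 411 CPM in young replicates 1, 2 and 3 and 1054, 786 and 281 CPM in the old ones. Its Lgr5-GFP level was 360.1, 268 and 471 CPM in young and 144, 164 and 86.8 CPM in old mice. SM6 old replicate 3 lay among the young libraries, and the other 2 old ones were above all young ones. In Lgr5-GFP every old library was below every young one.

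The SM6 difference of Apoa1 was 1.12 (SE 0.31, edgeR adjusted p = 0.0572), and it passed the test in 6 of 14 alternative settings and on leaving out SM6 old replicate 3 or Lgr5-GFP old replicate 3. Apoa1 fell by 1.47 on the log2 scale in Lgr5-GFP (SE 0.32, edgeR adjusted p = 0.0381). Without the pair of libraries high in defensins the SM6 value was 1.51 (edgeR adjusted p = 0.000481). The Lgr5-GFP call was lost with DESeq2 (adjusted p = 0.12), library totals alone (edgeR adjusted p = 0.0696), filterByExpr (0.0554) and robust quasi-likelihood (0.359), and on leaving out any of Lgr5-GFP young replicates 1 and 3, Lgr5-GFP old replicates 1 and 3 and SM6 young replicate 2, where edgeR adjusted p-values ran from 0.0503 to 0.198.

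Apoa4 encodes a chylomicron apolipoprotein that is secreted with fat absorption. It was at 20.0, 22.2 and 33.2 CPM in young SM6 libraries and 58.45, 43.4 and 27.96 CPM in old ones. Its Lgr5-GFP values were 32.1, 39.7 and 53.0 CPM in young and 17.3, 15.4 and 5.79 CPM in old mice. As for Apoa1, SM6 old replicate 3 was among the young values and the Lgr5-GFP ages did not overlap. The difference was 0.80 in SM6 (SE 0.31, edgeR adjusted p = 0.244). Apoa4 fell by 1.64 on the log2 scale in Lgr5-GFP (SE 0.34, edgeR adjusted p = 0.0297), a call that was lost on leaving out Lgr5-GFP young replicate 2 or 3 or old replicate 1 or 3 (adjusted p from 0.0504 to 0.124). The call was also lost with library totals alone in edgeR and with limma-voom (adjusted p of up to 0.0547).

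Apoc3 lies between them on the opposite strand and encodes an apolipoprotein known to slow the clearance of triglyceride-rich particles. SM6 libraries held 32.8, 24.4 and 36.9 CPM in young and 70.1, 67.2 and 16.8 CPM in old mice. Lgr5-GFP libraries held 24.3, 31.2 and 37.7 CPM in young and 19.3, 30.1 and 16.4 CPM in old mice. The ages overlapped in both isolations, with SM6 old replicate 3 the lowest SM6 library. The differences were 0.73 (SE 0.35, edgeR adjusted p = 0.374) in SM6 and -0.49 (SE 0.38, adjusted p = 0.745) in Lgr5-GFP. Without the pair of libraries high in defensins the SM6 value was 1.15 (edgeR adjusted p = 0.0121).

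**Figure D3:**
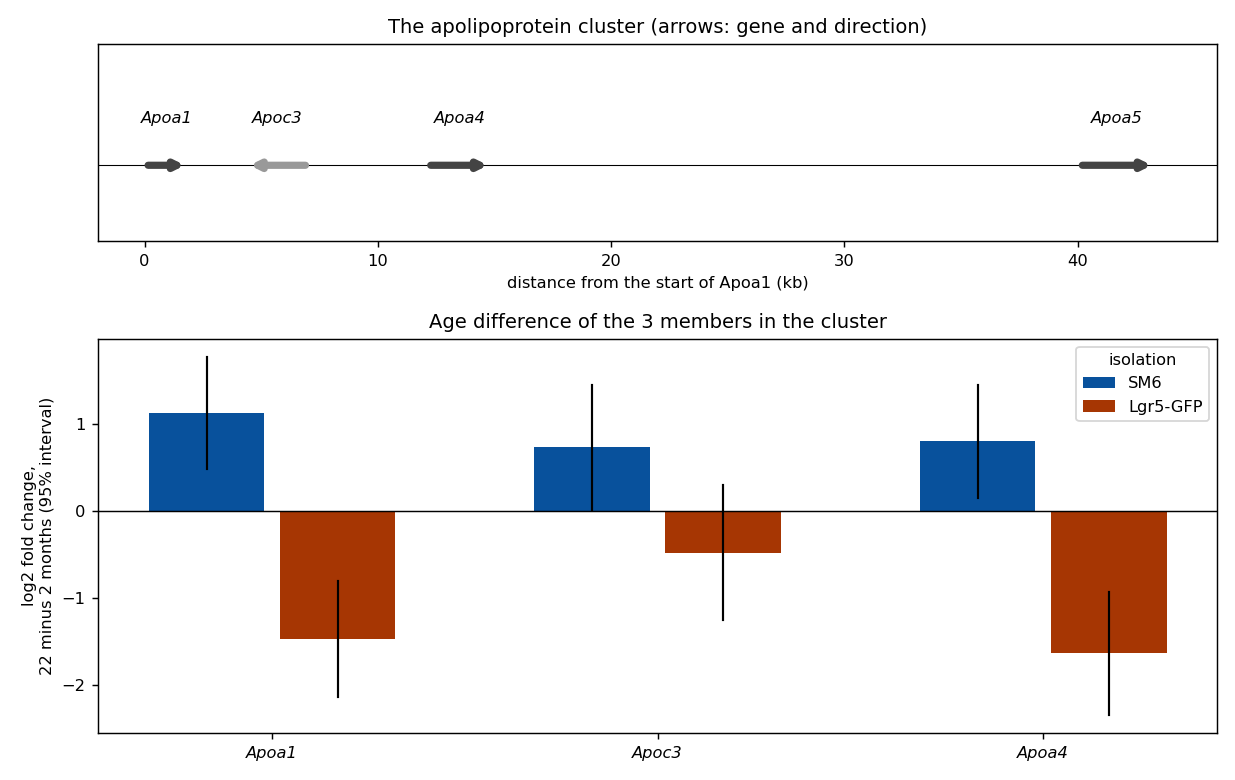
Top, the apolipoprotein cluster with distance from the start of Apoa1 in kb and arrows for gene direction. Bottom, age difference (log2 fold change, 22 minus 2 months, with 95% intervals) of Apoa1, Apoc3 and Apoa4 in SM6 and Lgr5-GFP. All 3 bars are above 0 in SM6 and below 0 in Lgr5-GFP, where the interval of Apoc3 spans 0.

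The age effects of the isolations were then set against each other by an interaction term, Lgr5-GFP minus SM6, to ask whether age went with different changes in each. The term was -2.60 for Apoa1 (SE 0.45, edgeR adjusted p = 0.00574) and -2.44 for Apoa4 (SE 0.47, adjusted p = 0.0115). These 2 of the 10 genes were called, beside 0.658% of all genes. Both calls held in each of the 12 fits that left out 1 library, with adjusted p-values of up to 0.0337 for Apoa1 and 0.0436 for Apoa4. Robust quasi-likelihood lost the call of Apoa1 (edgeR adjusted p = 0.272), and the enterocyte covariate lost both (adjusted p = 0.777 for Apoa1 and 0.625 for Apoa4). The terms of Apoc3 (-1.21, edgeR adjusted p = 0.456), Mttp (-0.90, adjusted p = 0.442) and Dgat1 (-0.63, adjusted p = 0.423) were also below 0, with unadjusted p-values under 0.05. In all 5 of the 10 genes had such a p, beside 9.43% of all genes. Without the pair of libraries high in defensins the term of Apoc3 was -1.80 (edgeR adjusted p = 0.0324). Over the 10 genes the median term was -0.78, with 9 below 0, against 0.0035 over all genes.

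Lgr5-GFP was also compared with SM6 at each age, with the same libraries as in the age comparisons. Among young mice 0 of the 10 genes were called by edgeR, beside 0.0898% of all genes, and DESeq2 and limma-voom also called 0. Apoa4 alone had an unadjusted p under 0.05 there, beside 7.47% of all genes, with a log2 difference of 0.74 (edgeR adjusted p = 0.61). Among old mice Apoa1 was lower in Lgr5-GFP by 5.35-fold (log2 difference -2.42, SE 0.33, edgeR adjusted p = 0.000205) and Apoa4 by 3.25-fold (-1.70, SE 0.35, adjusted p = 0.0156). These 2 of the 10 were called, beside 0.718% of all genes. The Apoa4 call was lost without SM6 old replicate 1 or Lgr5-GFP old replicate 3 (edgeR adjusted p = 0.111 and 0.114), the Apoa1 call with robust quasi-likelihood (adjusted p = 0.0985), and both with the enterocyte covariate (adjusted p = 0.672 for Apoa1 and 0.781 for Apoa4). For the same 2 genes every old Lgr5-GFP library lay below every old SM6 library, as it did in either direction for 13.5% of all genes. Apoc3 was at -1.23 there (edgeR adjusted p = 0.171), and at -1.62 when SM6 old replicate 3 (adjusted p = 0.00267) or both libraries high in defensins (adjusted p = 0.00168) were left out. Fabp1 differed by 0.51 between the isolations among old mice, with a 95% interval from -0.76 to 1.77.

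Ratios of counts between genes of one library do not depend on the scaling between libraries. They were chosen after the levels had been seen, so no test is given, and they are compared between libraries rather than read as relative abundance. Fabp1 per Apoa1 was 1.94, 1.34 and 1.01 in SM6 young replicates 1, 2 and 3 and 5.28, 2.34 and 3.65 in the old ones. In Lgr5-GFP it was 1.91, 1.02 and 2.17 in young and 9.26, 59.98 and 8.99 in old mice. Old libraries were above young libraries in both isolations, without overlap.

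Apoa1 per Fabp2 was 0.476, 0.523 and 0.703 in young SM6 libraries and 0.650, 0.593 and 0.433 in old ones. It was 0.567, 0.493 and 0.644 in young and 0.212, 0.131 and 0.146 in old Lgr5-GFP libraries. The SM6 ages overlapped in that ratio, and the old Lgr5-GFP libraries were below all the others. Fabp1 per Fabp2 was 0.921, 0.701 and 0.710 in young against 3.43, 1.38 and 1.58 in old SM6 libraries, and 1.08, 0.502 and 1.40 against 1.97, 7.87 and 1.31 in Lgr5-GFP, where old replicate 3 lay below young replicate 3.

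**Figure D4:**
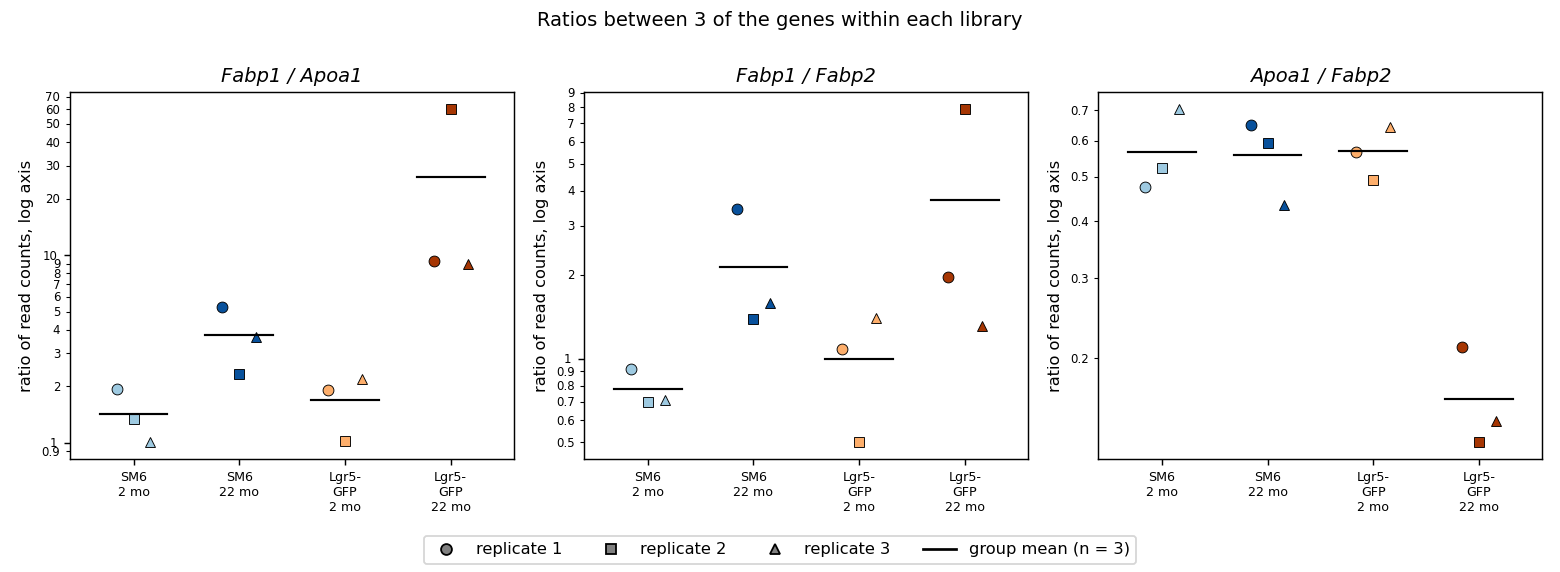
Ratios of read counts between 3 of the genes within each library (vertical axes, log scale) by isolation and age, with symbols for replicates 1 to 3 and lines for group means of 3 libraries. Fabp1 per Apoa1 is higher in every old library than in every young one of its isolation, and Apoa1 per Fabp2 is lowest in the 3 old Lgr5-GFP libraries.

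Correlations between the genes over the 12 libraries are given as a description of log2 values that share library and depth. Pearson's r was 0.889 between Fabp1 and Fabp2, 0.91 between Apoa1 and Apoa4 and 0.855 between Apoa1 and Apoc3, but 0.17 between Fabp1 and Apoa1 and 0.05 between Fabp1 and Apoa4. Other genes followed both pairs. Fabp2 had an r of 0.529 with Apoa1 and 0.713 with Apoc3, and Mttp had 0.684 with Fabp1 and 0.683 with Apoa4. Cd36, at its low counts, had 0.938 with Fabp2 and 0.797 with Apoc3.

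The wider fat handling pathway was described by 4 further lists. Beside the unadjusted counts given for lists from here on, 13.1% of all genes in SM6 and 9.79% in Lgr5-GFP had an unadjusted p under 0.05. Of 14 tested genes for fatty acid uptake and activation, 0 were called in SM6 by edgeR, with 3 at an unadjusted p under 0.05 and 0 by DESeq2 or limma-voom, and 1 was called higher in Lgr5-GFP. That gene was Acot1, a cytosolic enzyme that releases fatty acids from coenzyme A. It was at 75.8, 99.8 and 67.9 CPM in young SM6 libraries and 208, 128 and 91.9 CPM in old ones, and at 43.5, 58.6 and 57.5 CPM in young and 175, 601 and 94.5 CPM in old Lgr5-GFP libraries. Old Lgr5-GFP libraries were all above the young ones, with replicate 2 far ahead, and the SM6 ages overlapped. Acot1 rose by 2.46 on the log2 scale in Lgr5-GFP (edgeR adjusted p = 0.00682) and by 1.63 on average (adjusted p = 0.0021), and its reads may be shared with the near-identical Acot2. Leaving out Lgr5-GFP old replicate 2 gave 1.37 in Lgr5-GFP, and that call was lost under robust quasi-likelihood (edgeR adjusted p = 0.25) or a defensin covariate (adjusted p = 0.152). The average call was lost in 1 of 13 other settings (adjusted p of up to 0.141).

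Of 22 tested genes for glyceride synthesis and lipid droplets, Mgll was called higher in both isolations. It encodes monoacylglycerol lipase, which splits monoacylglycerol into fatty acid and glycerol. It was at 2.43, 2.77 and 3.61 CPM in young SM6 libraries and 34.3, 15.6 and 9.59 CPM in old ones. In Lgr5-GFP it was at 4.10, 0 and 4.14 CPM in young and 9.997, 74.0 and 13.5 CPM in old libraries, so the ages did not overlap in either isolation. Mgll rose by 2.74 on the log2 scale in SM6 (edgeR adjusted p = 0.0451), by 3.27 in Lgr5-GFP (adjusted p = 0.0243) and by 3.00 on average (adjusted p = 0.000846). Without Lgr5-GFP old replicate 2 the Lgr5-GFP value was 1.81 (edgeR adjusted p = 0.284), and without SM6 old replicate 1 the SM6 value was 2.12 (adjusted p = 0.276). The SM6 call was also lost without SM6 young replicate 1, 2 or 3, SM6 old replicate 2 or Lgr5-GFP young replicate 3, and the Lgr5-GFP call without Lgr5-GFP young replicate 1, 2 or 3, whereas the average was called in all 12 fits. Other settings lost the SM6 call in 5 of 14 cases (adjusted p of up to 0.65) and the Lgr5-GFP call in 3 of 14 (up to 0.457), and robust quasi-likelihood lost the average (edgeR adjusted p = 0.0508).

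Soat1, which esterifies cholesterol for storage, went the other way. It was at 519, 502 and 575 CPM in young SM6 libraries and 251, 209 and 360.3 CPM in old ones, all old ones being lower. Lgr5-GFP libraries held 474, 439.6 and 414 CPM in young and 373, 399 and 314 CPM in old mice, also without overlap. Soat1 fell by 0.96 on the log2 scale in SM6 (edgeR adjusted p = 0.00359) and by 0.62 on average (adjusted p = 0.00584), and the Lgr5-GFP difference was -0.29 (adjusted p = 0.654). Its SM6 call was lost in 1 of 14 other settings (adjusted p of up to 0.428).

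Of 23 tested genes for lipoprotein assembly and secretion beyond the 10, edgeR called 0 in any comparison. At an unadjusted p under 0.05 there were 4 higher and 1 lower in SM6 and 6 lower in Lgr5-GFP, and DESeq2 called 1 higher in SM6 and 1 lower in the interaction, while limma-voom called 1 higher in SM6. Apoa5 and Apoc2 were at 0 in all 12 libraries.

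Of 30 tested regulators of the lipid genes, 2 were called lower in SM6 and 0 in Lgr5-GFP by edgeR, where 6 had an unadjusted p under 0.05 and DESeq2 and limma-voom also called 0. Foxa3, a forkhead factor of endoderm, was at 269, 293 and 314 CPM in young SM6 libraries and 159.8, 110.6 and 202 CPM in old ones. It fell by 0.89 on the log2 scale in SM6 (edgeR adjusted p = 0.007) and by 0.71 on average (adjusted p = 0.00244). Nr2f2, an orphan nuclear receptor, fell by 1.01 in SM6 (edgeR adjusted p = 0.0318) and by 0.79 on average (adjusted p = 0.0156). In both genes every old SM6 library was below every young one. The SM6 call of Nr2f2 was lost without SM6 young replicate 2 or 3 or SM6 old replicate 1 or 2 (edgeR adjusted p of up to 0.195), and that of Foxa3 without SM6 old replicate 2 (adjusted p = 0.0621), where none of the 30 was called lower. The average call of Nr2f2 was lost without SM6 old replicate 1 or Lgr5-GFP old replicate 1 or 3 (edgeR adjusted p of up to 0.0675). Other settings lost the SM6 call of Nr2f2 in 2 of 14 cases (adjusted p of up to 0.725) and that of Foxa3 in 1 of 14 (up to 0.51). They lost the average call of Nr2f2 in 1 of 13 (up to 0.0894).

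Creb3l3, a membrane-bound factor known to activate apolipoprotein genes, was the 1 regulator called higher, in the average only. It was at 18.8, 17.7 and 13.7 CPM in young SM6 libraries and 75.6, 36.6 and 15.98 CPM in old ones, and at 19.2, 18.0 and 24.0 CPM in young and 28.7, 120.3 and 17.4 CPM in old Lgr5-GFP libraries. Old replicate 3 was within the young range in SM6 and just below it in Lgr5-GFP. Creb3l3 rose by 1.38 on average (SE 0.36, edgeR adjusted p = 0.0338), and the call was lost on leaving out any of 9 libraries singly, the exceptions being SM6 old replicate 3 and Lgr5-GFP old replicates 1 and 3. Its lowest value was 0.76, without Lgr5-GFP old replicate 2 (edgeR adjusted p = 0.209). The call was also lost in 5 of 13 other settings (adjusted p of up to 0.32).

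A list of 26 other enterocyte genes, with brush border enzymes and transporters, showed how far the lipid genes moved with that cell type's other products. In SM6, 6 of the 26 rose and 0 fell, with a median log2 difference of 0.69, and in Lgr5-GFP 1 fell and 0 rose, with a median of -0.94 and 15 at an unadjusted p under 0.05, all lower. The SM6 count dropped to 1 on leaving out SM6 young replicate 2 or SM6 old replicate 1 and to 2 on leaving out SM6 old replicate 2. It was 10 when SM6 old replicate 3, or both libraries high in defensins, were left out. The Lgr5-GFP count was 0 without Lgr5-GFP young replicate 1 or 3 or old replicate 1 or 3, and 2 without SM6 old replicate 3 or both libraries high in defensins. Over the other settings it ran from 0 to 7, the highest without a filter on low counts. Sucrase-isomaltase (Sis) rose by 1.60 on the log2 scale and the aminopeptidase Enpep by 2.09 in SM6 (edgeR adjusted p = 0.00778 and 0.00891). Both calls were lost without SM6 young replicate 2 or SM6 old replicate 1, and that of Enpep also without SM6 old replicate 2 (edgeR adjusted p from 0.0561 to 0.0882). Lactase (Lct) fell by 2.24 in Lgr5-GFP (edgeR adjusted p = 0.0326), from 25.2, 17.0 and 35.6 CPM to 4.00, 8.95 and 3.86 CPM. Every old Lgr5-GFP library was below every young one for Lct, and its call was lost in the 4 fits in which that count was 0 (edgeR adjusted p of up to 0.17). Other settings lost the Lct call in 3 of 14 cases (adjusted p of up to 0.091). They lost the SM6 calls of Sis and Enpep in 1 of 14 each (adjusted p = 0.941 and 0.673).

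For the interaction, 8 of the 26 were called and all were below 0, among them Lct (-3.63, edgeR adjusted p = 0.00554), the keratin gene Krt20 (-2.28, adjusted p = 0.00772) and intestinal alkaline phosphatase Alpi (-3.26, adjusted p = 0.00989). In 1 of 13 other settings 0 of the 26 were called. Lct and Krt20 lost their calls there (adjusted p = 0.554 and 0.502), and Alpi lost its call in 2 settings (up to 0.718). Among old mice all 26 were lower in Lgr5-GFP than in SM6, and 10 of them passed the test. The summed level of the 26 genes was 1880 to 1979 CPM in SM6 young, 1999 to 3143 in SM6 old, 1927 to 2154 in Lgr5-GFP young and 1746 to 1997 in Lgr5-GFP old. Apoa1 and Apoa4 thus had the same signs as most of this list, while the Fabp1 difference was above 0 in both isolations and passed the test in SM6.

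Adding the log2 of that summed level to the fit as a covariate, a setting chosen after the data were seen, gave interaction terms of -0.67 for Apoa1 (edgeR adjusted p = 0.777) and -1.41 for Apoa4 (adjusted p = 0.625). In the same fit the age difference of Fabp1 was 1.21 in SM6 (edgeR adjusted p = 0.764) and 3.23 in Lgr5-GFP (adjusted p = 0.0207), and that of Fabp2 in SM6 was 0.23 (adjusted p = 0.909). The Lgr5-GFP age differences of Apoa1 and Apoa4 stayed below 0 and called in that fit. The part of enterocyte content in the results was not tested further.

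**Figure D5:**
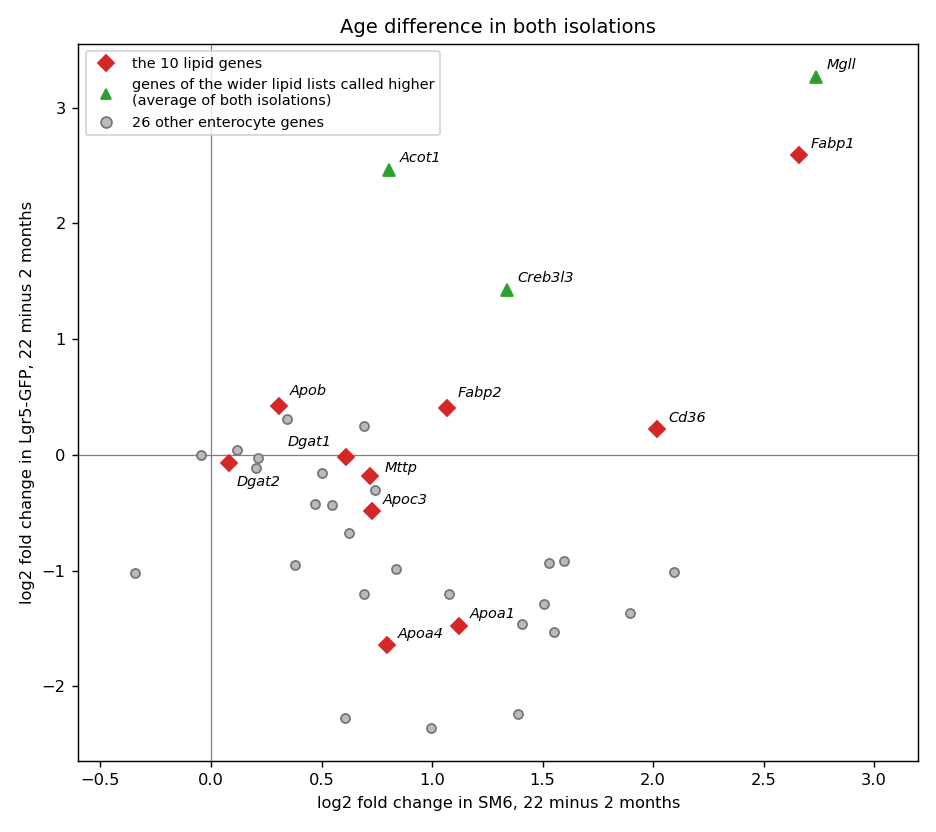
Age difference in Lgr5-GFP (vertical axis) against that in SM6 (horizontal axis), both as log2 fold change, 22 minus 2 months, for the 10 lipid genes (red), 26 other enterocyte genes (grey) and the 3 genes of the wider lipid lists called higher on average (green). Fabp1 lies beside Mgll at the upper right, and Apoa1 and Apoa4 lie at the lower right among the grey points.

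Markers of other cell types moved with the groups as well. Of 13 tested Paneth cell genes, 2 were called higher in SM6, 4 were called lower in Lgr5-GFP and 13 were called below 0 in the interaction, and their summed level was 13145 to 89091 CPM in SM6 young, 54892 to 335075 in SM6 old, 58221 to 323042 in Lgr5-GFP young and 23074 to 39388 in Lgr5-GFP old. Of 8 goblet cell genes, 5 were called higher in SM6, 0 were called in Lgr5-GFP (3 at an unadjusted p under 0.05) and 3 were called below 0 in the interaction, with sums of 5712 to 9134, 17322 to 18248, 5304 to 13753 and 3159 to 5504 CPM in the same order. Of 10 enteroendocrine genes, 2 were called higher in SM6, 0 were called in Lgr5-GFP (2 at an unadjusted p under 0.05), 1 was called below 0 in the interaction and 7 were called lower in Lgr5-GFP than in SM6 among old mice and 2 among young mice, with sums of 749 to 1338, 1022 to 3239, 139 to 302 and 72.3 to 167 CPM. Their part in the lipid gene results was not tested.

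Of 8 tuft cell genes, edgeR called 0 in any comparison, with 1 at an unadjusted p under 0.05 in SM6 and 3 in Lgr5-GFP, and their sums stayed between 2.34 and 83.5 CPM. The immune list had 4 tested genes of 12 and the endothelial, stromal and fat cell list 2 of 12, with 0 called in any comparison, and sums of 15.9 to 49.5 CPM and 77.7 to 191 CPM over all libraries. At an unadjusted p under 0.05 these lists had 2 genes and 0 genes in SM6. Of 12 stem cell genes, 3 fell in SM6 (Olfm4, Sox9 and Cdk6, by 0.84, 1.01 and 1.05 on the log2 scale) and 0 were called in Lgr5-GFP, where 4 had an unadjusted p under 0.05. On average 3 were called lower. The stem cell sums were 13898 to 17101 CPM in SM6 young, 8555 to 10033 in SM6 old, 13462 to 15178 in Lgr5-GFP young and 11423 to 12823 in Lgr5-GFP old. Old libraries were thus below young ones without overlap in both isolations. Of genes that mark the proximal small intestine 0 of 5 were called by edgeR in either isolation (1 in each at an unadjusted p under 0.05), and of distal ones 1 of 6 was called higher in SM6 and 0 were called in Lgr5-GFP (2 at an unadjusted p under 0.05).

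The genes whose pattern was most like the mean of the 10 were found by Pearson's r over the 12 libraries, among 8318 other genes with a mean of at least 10 CPM. They were Cyp3a11 (r = 0.966), Ces2e (0.909), St3gal4 (0.881), Maoa (0.877), Slc51a (0.876) and Alpi (0.872), with Spearman's rho from 0.734 to 0.916. Cyp3a11 and Ces2e belong to families with close copies, so their counts are uncertain.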

How the data were processed

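Reads of 12 3′ libraries had been aligned by the authors with STAR 2.4.2a to GRCm38 and assigned to GENCODE genes with featureCounts. The deposited values are the resulting counts, unscaled. Whether reads with the same molecular identifier were collapsed, and the strand setting, were not given in the sources used here. Intervals on shares of counts cover counting error only, and those on log2 differences come from the fit across mice.

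The software was edgeR 4.0.16 under R 4.3.3. Genes with more than 5 reads and at least 1 CPM in 1 library were kept, totals were scaled by TMM, and the 13368 genes were tested over all 12 libraries by quasi-likelihood, with a mean for each group, two-sided, with Benjamini-Hochberg adjustment over all of them and a threshold of 0.05. The study tested other libraries, so this test was chosen for counts in general. Old was compared with young in each isolation, on average and by an interaction term (Lgr5-GFP minus SM6), and Lgr5-GFP with SM6 at each age. P-values measure the spread between single mice. Alternatives used DESeq2 1.42.0, limma 3.58.1, other scalings and filters, covariates, the replicate number as a block and leaving out each library.

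The 10 genes, the 14 gene lists and the alternatives were chosen with earlier results of these data known. From the 4 pathway lists and the other enterocyte genes, up to 3 called genes with the smallest adjusted p were named for each age effect, the average and the interaction, and the 6 non-member genes with the highest Pearson r to the mean scaled log2(CPM + 10) of the 10. Genes of the cell type lists named singly, the ratios and the genes most alike to Fabp1 or Apoa1 were chosen after their values were seen. Positions came from GENCODE vM21 and start site windows from RefSeq (GRCm38.p6). Plots used matplotlib 3.10.9 under Python 3.11.15. No sample was left out, and 1 gene that the naming rule gives is not reported here.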

Additional observations from a re-analysis of the deposited data

Results flagged for a closer look

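Among the 10 lipid genes and the genes named from the lists, the age effects of 7 differed between the isolations by a test of that difference (interaction term of edgeR, log2 scale, Lgr5-GFP minus SM6, n = 3 libraries in each of the 4 groups). Among the lipid genes the term was -2.60 for Apoa1 (SE 0.45, edgeR adjusted p = 0.00574) and -2.44 for Apoa4 (SE 0.47, adjusted p = 0.0115). Among the other enterocyte genes it was -3.63 for Lct (edgeR adjusted p = 0.00554), -2.28 for Krt20 (adjusted p = 0.00772), -3.26 for Alpi (adjusted p = 0.00989), -2.51 for Sis (adjusted p = 0.0115) and -3.10 for Enpep (adjusted p = 0.0176). Summed Paneth cell, goblet cell and enterocyte marker levels moved in the same directions between these groups, and their part in the differences was not tested.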

How the results depend on the processing

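Numbers of the 10 genes called were 2 in SM6, 2 in Lgr5-GFP, 2 on average, 2 for the interaction, 0 between isolations at 2 months and 2 at 22 months, and changed as follows. In SM6 they were 1 with library totals alone or DESeq2, 4 without a filter or with limma-voom, 0 with robust quasi-likelihood or the enterocyte covariate, 5 with a defensin covariate, 6 without the 2 libraries high in defensins, and 0 to 6 on leaving out 1 library (0 without SM6 young replicate 1, 2 or 3 or SM6 old replicate 1, 6 without SM6 old replicate 3). In Lgr5-GFP they were 1 with library totals alone, filterByExpr, DESeq2, limma-voom or robust quasi-likelihood, and 0 to 3 on leaving out 1 library. The average gave 1 with DESeq2, 0 with robust quasi-likelihood and 1 to 2 on leaving out 1 library. Apoa1 was called lower on average in 1 of 13 other settings (adjusted p = 0.0442). The interaction gave 1 and the 22-month comparison 1 with robust quasi-likelihood, both 0 with the enterocyte covariate, and 2 to 3 and 1 to 3 on leaving out 1 library. Among the other settings the numbers in SM6, in Lgr5-GFP, for the interaction and at 22 months included 3. The comparison at 2 months gave 0 throughout. The enterocyte covariate and the fit without 2 libraries were chosen after seeing the data, and the causes of these changes were not tested. Some values that had not passed the test changed sign. Library totals alone gave Dgat2 -0.041 (SM6), 0.11 (Lgr5-GFP) and 0.15 (interaction), Mttp 0.0049 and Dgat1 0.18 (Lgr5-GFP) and Fabp1 0.17 (interaction). They also moved the median of all genes to -0.16 in SM6, 0.16 in Lgr5-GFP and 0.35 for the interaction, and the share of calls that were lower from 73.4% to 85.0%, 60.3% to 39.2% and 92.0% to 54.0%, and from 41.7% to 68.0% at 2 months and 93.8% to 75.7% at 22 months. The enterocyte covariate moved that share to 13.8% in SM6 and 28.3% at 2 months. Dgat2 on average was -0.0095 without a filter, -0.016 with limma-voom and -0.14 with the defensin covariate. That covariate also gave Fabp2 -0.11, Apob -0.17 and Cd36 -1.02 (Lgr5-GFP), Apoc3 -0.091 (average) and Apob -0.87 (interaction). Without the 2 libraries high in defensins Dgat1 was 0.052 (Lgr5-GFP), Apoa1 0.013 (average) and Apob -0.016 (interaction). With the enterocyte covariate Apoa1 was -0.32, Apob -0.34, Apoc3 -0.78 and Dgat2 -0.83 (SM6), Apoc3 0.014, Mttp 0.00084, Dgat1 0.10 and Dgat2 0.26 (Lgr5-GFP), Apoc3 -0.38 and Dgat2 -0.28 (average), Fabp1 2.02, Fabp2 0.48, Apoc3 0.80, Dgat2 1.09 and Cd36 0.63 (interaction) and Apoc3 0.52 (22 months). On leaving out 1 library, the ranges that crossed 0 were -0.11 to 0.42 for Dgat2 (SM6), -0.25 to 0.84 for Apob, -0.40 to 0.043 for Mttp, -0.11 to 0.077 for Dgat1, -0.57 to 0.16 for Dgat2 and -0.29 to 0.46 for Cd36 (Lgr5-GFP), -0.37 to 0.018 for Apoa1, -0.022 to 0.33 for Apoc3 and -0.24 to 0.18 for Dgat2 (average), and -1.99 to 0.89 for Fabp1, -0.56 to 0.53 for Apob and -0.65 to 0.074 for Dgat2 (interaction). All-gene counts of calls moved by over 1.5 times without a filter (603 in SM6, 274 in Lgr5-GFP, 590 on average, 224 for the interaction, 125 at 2 months and 228 at 22 months), with the likelihood ratio test (527, 173, 158, 41 and 203, the average apart) and with the enterocyte covariate (29, 122, 198, 57, 46 and 52), and singly with library totals alone (97 in Lgr5-GFP, 25 at 2 months), DESeq2 and limma-voom (22 each at 2 months), robust quasi-likelihood (50 for the interaction), the defensin covariate (28 in Lgr5-GFP, 34 for the interaction) and without 2 libraries (20 at 2 months). On leaving out 1 library they ran from 145 to 404 in SM6 (145, 196, 158 and 168 without SM6 young replicates 2 and 3 and SM6 old replicates 1 and 2), 26 to 113 in Lgr5-GFP (35, 26 and 33 without Lgr5-GFP young replicate 1 and old replicates 1 and 3, 113 without SM6 old replicate 3), 228 to 471 on average (231, 228 and 232 without SM6 young replicate 2 and SM6 old replicates 1 and 2), 41 to 98 for the interaction (45, 41 and 56 without SM6 young replicate 2, Lgr5-GFP young replicate 1 and Lgr5-GFP old replicate 2), 6 to 39 at 2 months (6, 7 and 39 on omitting young replicate 2 of either isolation, SM6 young replicate 3 and SM6 old replicate 3) and 40 to 120 at 22 months (40 without Lgr5-GFP old replicate 3). Same-numbered libraries of different groups had residual correlations of -0.101 to 0.116, 1 of 18 over 0.1, so the numbers were not taken as pairs. The replicate block gave the same numbers of the 10 genes called (331 calls over all genes in SM6, 57 in Lgr5-GFP) and a Dgat2 average of -0.033. Cd36 and Dgat2 had no DESeq2 adjusted p in 4 tests. Depth limits Cd36, Apoa4 and Dgat2 most, whose lowest counts in a library were 2, 6 and 11.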

Other observations

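Ranked alone rather than as the mean of the set, Fabp1 and Apoa1 had different nearest genes among 8326 others over the 12 libraries, a comparison chosen after their values were seen and given as a description. Nearest to Fabp1 were Mgll (Pearson's r = 0.958), Creb3l3 (0.94), Ces1f (0.891), Fabp2 (0.889), the calcium pump gene Atp2a2 (0.889) and Acadl (0.88), which encodes a mitochondrial long-chain acyl-coenzyme A dehydrogenase. Nearest to Apoa1 were Lct (r = 0.964), the amino acid transporter gene Slc6a19 (0.961), Klf4 (0.957), Spink1 (0.951), the peptidase gene Ace (0.95) and Gda (0.948). None of the 6 names was on both lists. Spearman's rho ran from 0.727 (Creb3l3) to 0.937 (Mgll) for Fabp1 and from 0.839 (Gda) to 0.979 (Lct) for Apoa1. Fabp1, Mgll and Creb3l3 were all highest in Lgr5-GFP old replicate 2. Reads of Ces1f may be shared with close copies.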
